A study of Homo sapiens with 12 samples.

Results

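The 12 h response to low-dose THZ1 was described from 4 of the 12 RNA-seq libraries of the series: KYSE510 and TE7 cells after 12 h at 50 nM THZ1, and the DMSO library of each line. KYSE510 and TE7 are established human lines labelled as esophageal squamous cell carcinoma, KYSE510 grown in RPMI-1640 and TE7 in DMEM, both with serum. There was 1 polyadenylated-RNA library per line and condition, so the 2 lines stand in for replicates, and a p-value reflects the spread of these single libraries, which may be technical. The DMSO libraries are titled 0 h and carry a time label of 12 h, and no DMSO library is labelled 2, 4 or 6 h. The other 8 libraries (50 nM for 2, 4 or 6 h and 200 nM for 6 h, in both lines) entered the fits to estimate the spread, and the 2 h libraries served as a second reference.

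THZ1 is a covalent inhibitor of CDK7, the kinase that works both in the CDK-activating complex and in the general factor TFIIH. In TFIIH, CDK7 phosphorylates the tail of RNA polymerase II as the polymerase leaves the promoter, and at higher exposure THZ1 also binds CDK12 and CDK13, kinases that sustain elongation through long genes. After inhibition of transcription an mRNA level follows both what is still made and how fast the existing RNA decays. Polyadenylated RNA reports the level and does not separate making from decay.

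FPKM, fragments per kilobase of transcript scaled to sequencing depth, summed to 489371 in the library labelled KYSE510 DMSO, 512828 in KYSE510 at 12 h, 604963 in TE7 DMSO and 729515 in TE7 at 12 h. In genes at or above 1 FPKM the authors' 95% upper bound lay a median 7.31% to 9.57% above the value in these 4 libraries, which covers counting error only. All 10 squamous markers (KRT5, KRT14, KRT6A, KRT17, TP63, DSG3, DSC3, PKP1, TFAP2A, ITGB4) reached 1 FPKM in all 4 libraries, with sums of 2476 and 5106 FPKM in KYSE510 and 3092 and 3394 FPKM in TE7. At 2 h these sums were 4140 FPKM in KYSE510 and 2904 FPKM in TE7. Columnar, fibroblast, endothelial and leukocyte markers summed to 0.197 to 20.7 FPKM per list and library. The neuronal list of KYSE510 summed to 56.8 FPKM in DMSO and 491 FPKM at 12 h, of which the hydrolase gene UCHL1 made 0.317 and 485 FPKM.

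The library labelled KYSE510 DMSO stood apart from its own line. Across tested genes its log2 values correlated with the KYSE510 2 h library at r = 0.879, against 0.976 for TE7 DMSO and TE7 2 h. In KYSE510, 50 genes lay at or above 8 FPKM in DMSO and under 0.3 FPKM in every 50 nM library, and 61 did the reverse; TE7 had 4 and 1. Every KYSE510 direction against DMSO draws on that library. Many results below are therefore also given from TE7, from KYSE510 at 12 h against 2 h, or from the fit without that library. A count or call given from the full fit alone includes it.

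Most transcripts that changed by 12 h were lower. Of 15610 tested genes limma called 4439 (28.4%), with 510 higher (3.27%) and 3929 lower (25.2%). All of them had the same sign in both lines. The test takes its spread from how the lines differ, so this agreement is largely built in and is no separate result. The median gene itself stood at -0.27 (log2) in KYSE510 and -0.52 in TE7, so changes were also taken relative to it. With the libraries scaled by the median of ratios, 1802 genes were higher (11.5%) and 1679 lower (10.8%), and 509 of the 510 higher genes stayed higher while 1679 of the 3929 lower genes stayed lower. The split between higher and lower genes thus rests on the scaling. The fit without the library labelled KYSE510 DMSO gave 375 higher (2.40%) and 3715 lower genes (23.8%), of which 269 and 2916 were among the calls of the full fit.

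By size alone, 582 genes (3.73%) lay at least 1 log2 unit above the median gene in both lines and 1135 (7.27%) at least 1 unit below. In KYSE510 at 12 h against 2 h, which does not use the DMSO library, 556 of the 582 were above the median gene and 1097 of the 1135 were below it. They reached 1 unit in 287 and 720 cases, against 679 and 1766 of all 15610 tested genes. The KYSE510 12 h library also served to choose these genes, so the comparison with 2 h is not independent of the choice. Larger single-line changes were common: 2221 genes were at least 1 unit up in KYSE510 and 1557 in TE7, and 57 and 59 genes were at least 1 unit apart from the median gene in opposite directions. Across genes the relative changes of the lines correlated at r = 0.468, and TE7 against KYSE510 12 h over 2 h at r = 0.643. These are descriptions across genes of the same libraries.

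**Figure D1:**
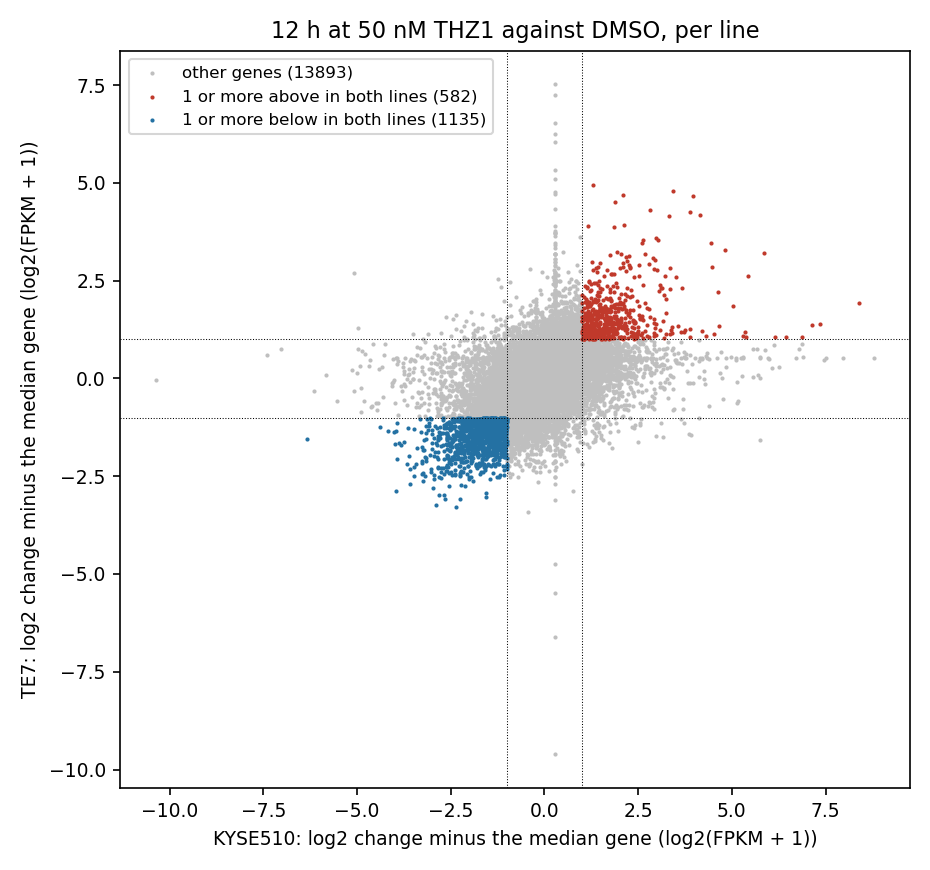
Log2 change from DMSO to 12 h at 50 nM THZ1 minus the median gene, KYSE510 on the x axis and TE7 on the y axis, 1 point per tested gene (15610). The 582 red genes and 1135 blue genes are at least 1 unit above or below the median gene in both lines.

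The relative change differed with how abundant a transcript was, though not in 1 direction over the whole range. Protein-coding genes were put into 10 equal bins by their mean FPKM in the 2 h libraries. Those libraries are not part of the contrast, but they were treated with THZ1 and entered the fits. The highest bin (69.7 to 6668 FPKM) lay at 0.51 in KYSE510 and 0.46 in TE7 relative to the median gene, and 7.64% of it was called lower. The bin from 6.07 to 9.09 FPKM lay at -0.44 and -0.30, with 38.9% called lower. The lowest bin (0 to 1.64 FPKM) lay above it, at -0.00 in KYSE510 and 0.24 in TE7, with 17.2% called lower. Relative to the median gene 39.0% of the highest bin was called higher, against 3.25% of the lowest bin. In 10 bins by transcript length, the shortest (177 to 1411 bases) lay at 0.27 and 0.24 and had 17.9% called lower, against 23.6% to 33.5% in the other bins. Values near 1 FPKM are compressed on the log2(FPKM + 1) scale, and levels and length are related, so neither share was separated from the other.

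**Figure D2:**
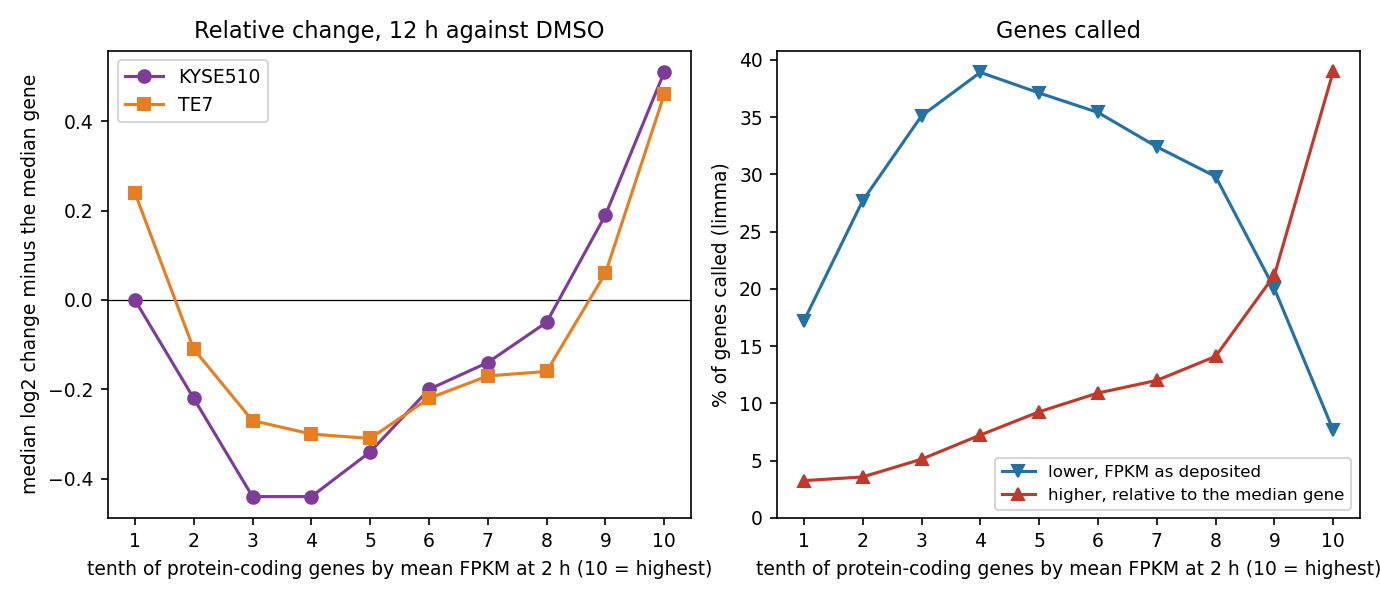
Protein-coding genes in 10 equal bins of mean FPKM at 2 h on the x axis, with the median relative log2 change per line (left) and the percentage of genes called by limma (right). The bin of highest FPKM lies highest in both lines (0.51 and 0.46) and has the lowest share called lower (7.64%).

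The 12 largest rises within the naming rule were of mixed function, and 2 of them act on nuclear RNA. NXF1, the main mRNA export receptor, was at 20.5 FPKM in DMSO and 151 FPKM at 12 h in KYSE510, and at 46.2 and 173 FPKM in TE7. SRRT, which encodes ARS2 and links the RNA cap to processing and decay, went from 47.2 to 332 FPKM and from 82.7 to 274 FPKM. Both 12 h libraries lay above both DMSO libraries for each gene, with log2 changes of 2.35 ± 0.26 (SE; adjusted p = 0.00144) for NXF1 (11, 62559595 to 62573774, hg19) and 2.25 ± 0.25 (adjusted p = 0.00144) for SRRT (7, 100472733 to 100486285). KLHL11, for a Kelch-like ubiquitin ligase adaptor, rose from 2.18 to 15.3 FPKM and from 1.41 to 18.8 FPKM. UGGT2, for a folding sensor of the endoplasmic reticulum, rose from 4.88 to 41.8 FPKM and from 11.6 to 42.3 FPKM. MAFK, a small MAF partner of CNC factors, rose from 10.8 to 42.3 FPKM and from 12.4 to 40.7 FPKM. For NXF1, SRRT, KLHL11 and UGGT2 the KYSE510 level at 2 h (49.4, 101, 5.47 and 21.3 FPKM) lay between DMSO and 12 h.

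Others of the 12 lie in introns or are non-coding or short. SLC7A5P1, a pseudogene of an amino acid transporter, went from 1.37 to 12.9 FPKM and from 1.02 to 26.9 FPKM. EID3, a small gene of the SMC5/6 complex family that lies in an intron of TXNRD1, went from 0.278 to 22.0 FPKM and from 0.219 to 8.32 FPKM. MIR22HG was at 2.24, 46.6 and 75.4 FPKM in KYSE510 in DMSO, at 2 h and at 12 h, and at 2.38 and 22.1 FPKM in TE7. The calls of 2 genes did not pass without the library labelled KYSE510 DMSO: the homeobox gene HHEX (2.41 to 25.0 and 1.83 to 7.75 FPKM; adjusted p = 0.0842 without it) and the histone gene HIST1H2BG (listed at 0 to 9.46 and 2.17 to 10.0 FPKM; 0.199). 

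The falls were deep in both lines. FAM208A, which encodes the HUSH subunit TASOR, dropped to 2.82 FPKM in KYSE510 (31.5 FPKM in DMSO) and to 1.60 FPKM in TE7 (28.4 FPKM in DMSO), 8.94% and 5.64% of DMSO (log2 change -3.29 ± 0.25, adjusted p = 0.00108). ARHGEF39, for a guanine nucleotide exchange factor, went from 14.7 to 1.03 FPKM and from 27.6 to 1.53 FPKM. DPH5, a diphthamide synthesis enzyme that modifies elongation factor 2, went from 27.0 to 2.95 FPKM and from 20.9 to 1.30 FPKM. In each of the 3 genes both 12 h values lay below every DMSO value, and the KYSE510 2 h values (20.2, 10.5 and 13.6 FPKM) lay between DMSO and 12 h. MIR210HG, the host RNA of a hypoxia-induced microRNA, went from 13.7 to 0.637 FPKM and from 18.0 to 0.406 FPKM. KRCC1 went from 7.22 to 0.0867 FPKM and from 16.7 to 0.465 FPKM. PPP1R10, a targeting subunit of protein phosphatase 1 in the nucleus, went from 20.5 to 1.54 FPKM and from 23.5 to 1.99 FPKM. All 12 of the largest falls kept their call without the library labelled KYSE510 DMSO, KCNN4 most narrowly (adjusted p = 0.0497).

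Among the target kinases, CDK7 (5, 68530668 to 68573250, hg19) was at 21.9 and 13.8 FPKM in KYSE510 and at 26.5 and 11.3 FPKM in TE7, a log2 change of -0.90 ± 0.36 that did not pass (adjusted p = 0.103). CDK12 fell, from 18.6 to 10.6 FPKM and from 16.0 to 5.22 FPKM (adjusted p = 0.00969), but not relative to the median gene (adjusted p = 0.0927). CDK13 did not pass, at 10.2 and 5.72 FPKM and at 10.2 and 6.56 FPKM (adjusted p = 0.0866). The paralogous Mediator kinases CDK19 and CDK8 fell, CDK19 to 8.83% of DMSO in KYSE510 and 13.6% in TE7. Of 19 genes of the CDK7 complex, transcription kinases and their cyclins and regulators 7 fell and 3 rose, against 25.2% and 3.27% of all tested genes. In the scaled fit 1 was lower and 6 higher, against 10.8% and 11.5%. The risers were cyclins, with CCNT2, a partner of CDK9, from 11.9 to 25.2 FPKM and from 10.4 to 26.1 FPKM, and CCNL2, a splicing-linked cyclin, from 42.6 to 88.8 FPKM and from 93.7 to 162 FPKM. The third, CCNL1, did not pass without the library labelled KYSE510 DMSO (adjusted p = 0.13).

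The core enzyme and its partners split. POLR2A, the largest subunit of RNA polymerase II, rose from 47.2 to 134 FPKM and from 39.9 to 139 FPKM. POLR2D fell, a call lost without the library labelled KYSE510 DMSO (adjusted p = 0.0529). Relative to the median gene 6 of 12 polymerase subunits were higher and 0 lower, against 11.5% and 10.8% of all tested genes. Among 28 general transcription factors 11 fell and 1 rose, but relative to the median gene 4 were higher and 2 lower. The riser was GTF2B, the TFIIB gene, from 17.4 to 46.3 FPKM and from 19.9 to 36.2 FPKM. TAF12 and TAF2 of TFIID fell, TAF12 from 14.0 to 2.69 FPKM and from 16.7 to 2.58 FPKM. Among 33 Mediator and BET genes 9 fell, near the 25.2% of all tested genes, and 2 rose. With the scaled libraries 4 were lower and 7 higher. MED13 of the Mediator kinase module rose from 8.79 to 38.2 FPKM and from 8.81 to 27.7 FPKM. MED11 of the Mediator head fell from 19.3 to 4.54 FPKM and from 15.5 to 2.39 FPKM.

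Integrator, which cleaves snRNA and promoter-proximal transcripts, had the lowest mean of the lines' relative medians among lists with at least 10 tested genes. Of 13 subunit genes 9 fell and 0 rose, against 25.2% lower among all tested genes, and 7 were lower relative to the median gene, against 10.8%. The relative medians were -0.81 in KYSE510, -1.12 in TE7 and -0.76 in KYSE510 at 12 h against 2 h, and 9 fell without the library labelled KYSE510 DMSO. INTS3 was at 30.4 and 4.43 FPKM in KYSE510 and at 19.2 and 1.49 FPKM in TE7 (-2.77 ± 0.27, adjusted p = 0.00124). INTS8 went from 32.7 to 9.77 FPKM and from 37.0 to 3.99 FPKM. INTS5 went from 14.4 to 2.31 FPKM and from 17.5 to 4.93 FPKM. All 3 were lower in both 12 h libraries than in either DMSO library.

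Cleavage and polyadenylation genes went both ways, with 7 of 21 lower and 2 higher, or 3 and 4 relative to the median gene. CPSF3, the endonuclease, fell from 37.2 to 12.9 FPKM and from 38.9 to 4.01 FPKM, and CSTF1 from 33.3 to 8.89 FPKM and from 53.9 to 13.9 FPKM. CPSF6, of the factor that favours distal sites, rose from 46.0 to 81.6 FPKM and from 50.6 to 83.9 FPKM. Among 23 export genes NXF1 alone rose and 7 fell, not far from the 25.2% of all tested genes, while relative to the median gene 4 were higher and 1 lower. The adaptor gene CHTOP fell from 54.1 to 12.9 FPKM and from 33.1 to 6.62 FPKM. Among 20 SR protein and CLK kinase genes 4 fell and 2 rose, against 25.2% and 3.27% of all tested genes. Relative to the median gene 6 were higher and 2 lower, against 11.5% and 10.8%. CLK1 and TRA2B rose and CLK2, SRSF1 and SRSF3 fell; CLK1 was at 10.3 and 27.9 FPKM and at 23.1 and 57.5 FPKM, while its paralog CLK2 was at 46.2 and 7.26 FPKM and at 46.5 and 10.9 FPKM. The rises of CLK1 and TRA2B did not pass without the library labelled KYSE510 DMSO (adjusted p = 0.0585 and 0.0795).

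**Figure D3:**
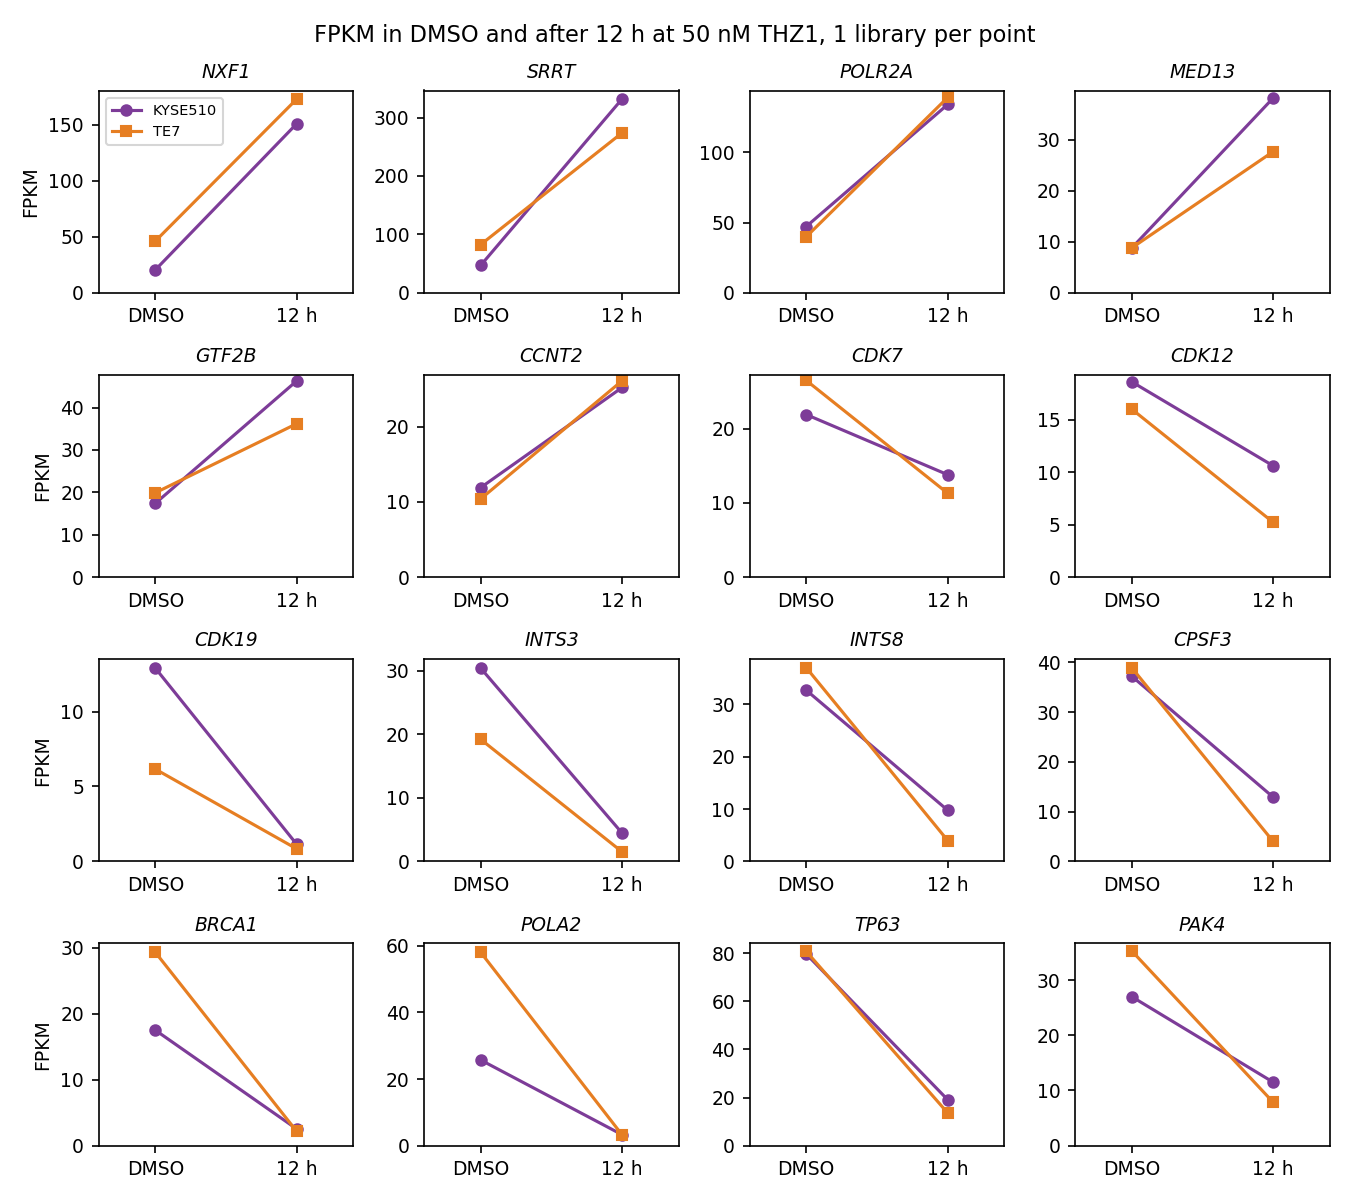
FPKM (y axis, from 0) in DMSO and after 12 h at 50 nM THZ1 for 16 genes of transcription, repair and the squamous lineage, 1 library per point and 1 line per cell line. Both 12 h points lie above both DMSO points for NXF1 and POLR2A and below them for INTS3, BRCA1 and TP63.

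Of 37 homologous recombination and Fanconi genes 22 fell and 0 rose, against 25.2% and 3.27% of all tested genes. Relative to the median gene 15 were lower and 1 higher, against 10.8% and 11.5%. The relative medians were -0.71 in KYSE510, -0.75 in TE7 and -0.83 in KYSE510 at 12 h against 2 h. RECQL5, a helicase that restrains recombination and binds the polymerase, went from 10.8 to 1.80 FPKM and from 27.8 to 3.14 FPKM. Among 43 DNA replication genes 15 fell and 1 rose, against 25.2% and 3.27% of all tested genes. Relative to the median gene 8 were higher and 4 lower, against 11.5% and 10.8%, the lower count being near its share. POLA2 of the primase complex went from 25.7 to 3.27 FPKM and from 58.0 to 3.20 FPKM (-3.23 ± 0.29, adjusted p = 0.00108), and GINS1 of the replicative helicase from 17.1 to 1.29 FPKM and from 27.3 to 3.07 FPKM. POLE3, a histone-fold subunit of polymerase epsilon, rose from 70.8 to 168 FPKM and from 71.2 to 119 FPKM.

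Of 34 mitosis genes 18 fell and 0 rose, against 25.2% and 3.27% of all tested genes. Without the library labelled KYSE510 DMSO 20 fell, against 23.8%. Relative to the median gene 8 were lower and 2 higher, against 10.8% and 11.5%. HMMR, a spindle and hyaluronan receptor gene, went from 49.9 to 7.09 FPKM and from 39.9 to 5.41 FPKM. CDC25C, the phosphatase that activates CDK1, went from 13.5 to 1.28 FPKM and from 8.81 to 0.880 FPKM. The relative mitosis median of -0.71 in KYSE510 and -0.93 in TE7 against DMSO was -0.11 and -0.25 at 12 h against 2 h. Replication-dependent histone genes, whose main mRNAs lack a poly(A) tail, had 4 of 44 higher and 1 lower; the riser within the naming rule was HIST1H2BG, and HIST3H2A fell, a call lost without the library labelled KYSE510 DMSO (adjusted p = 0.0981).

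Squamous lineage transcription factors fell in 10 of 19 cases, with 0 rising, against 25.2% and 3.27% of all tested genes. Relative to the median gene 4 were lower and 0 higher, against 10.8% and 11.5%. TP63, the master factor of squamous epithelium, was at 79.7 and 19.1 FPKM in KYSE510 and at 80.8 and 13.6 FPKM in TE7. That is 24.0% and 16.9% of DMSO, with a log2 change of -2.24 ± 0.30 (adjusted p = 0.00226) and -1.64 relative to the median gene (adjusted p = 0.00738). The KYSE510 2 h library had 92.2 FPKM. BNC1, of basal keratinocytes, and GRHL2, an epithelial factor, also fell, but neither passed relative to the median gene (adjusted p = 0.0556 and 0.176) or without the library labelled KYSE510 DMSO (0.204 and 0.158). SOX2 was at 8.37 and 15.3 FPKM in KYSE510 and at 18.5 and 6.45 FPKM in TE7, opposite directions, and did not pass (adjusted p = 0.884).

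Structural genes of the same lineage were counted separately. Of 15 epithelial keratins 1 fell and 0 rose, against 25.2% and 3.27% of all tested genes. Relative to the median gene 1 was lower and 2 higher, against 10.8% and 11.5%. KRT15 fell from 642 to 58.6 FPKM and from 30.7 to 8.58 FPKM, with 82.3 FPKM in KYSE510 at 2 h. The relative medians of the list were 1.24 in KYSE510 and 0.45 in TE7 against DMSO, and 0.57 and 0.41 at 12 h against 2 h. Of 21 desmosome and hemidesmosome genes 4 fell and 1 rose, near the 25.2% and 3.27% of all tested genes. Relative to the median gene 0 were lower and 2 higher, against 10.8% and 11.5%. The riser in deposited FPKM was COL17A1, the hemidesmosomal collagen, from 24.7 to 162 FPKM and from 166 to 258 FPKM. EVPL, for a cornified envelope plakin, fell from 6.76 to 2.87 FPKM and from 16.1 to 4.52 FPKM.

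The 5 genes that the study named as super-enhancer genes had 2 calls; the list was chosen on these samples and is no independent evidence of its direction. PAK4, a p21-activated kinase, fell from 27.0 to 11.5 FPKM and from 35.3 to 7.86 FPKM (adjusted p = 0.00598, and 0.0272 relative to the median gene). YAP1, the Hippo pathway coactivator, fell from 112 to 32.2 FPKM and from 59.2 to 32.9 FPKM. YAP1 did not pass relative to the median gene (adjusted p = 0.228) or without the library labelled KYSE510 DMSO (0.0949). RUNX1 (28.8 to 5.88 and 14.5 to 17.4 FPKM), DNAJB1 (51.7 to 25.5 and 73.4 to 22.2 FPKM) and SREBF2 (26.2% and 77.5% of DMSO) did not pass. The TEAD partner gene TEAD3 fell in both fits, from 12.4 to 2.78 FPKM and from 10.3 to 2.78 FPKM.

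Of the receptor, ligand and feedback genes 7 of 27 fell and 0 rose, near the 25.2% and 3.27% of all tested genes. Relative to the median gene 3 were higher and 2 lower, near the 11.5% and 10.8% of all tested genes. FGFR3, a fibroblast growth factor receptor, fell from 22.4 to 4.79 FPKM and from 67.3 to 15.7 FPKM (-2.02 ± 0.19, adjusted p = 0.00116). EGFR was at 37.5 and 41.2 FPKM and at 47.1 and 14.7 FPKM (adjusted p = 0.217), and MYC at 179 and 145 FPKM and at 45.2 and 32.7 FPKM (adjusted p = 0.623). Among 27 AP-1 and early genes 3 rose and 3 fell, against 3.27% and 25.2% of all tested genes. Relative to the median gene 4 were higher and 1 lower, against 11.5% and 10.8%. Their relative medians were 0.24 in KYSE510 and 0.33 in TE7 against DMSO, and -1.67 and -0.89 at 12 h against 2 h. The AP-1 subunit gene JUNB was at 95.9 and 252 FPKM and at 111 and 239 FPKM, while its paralog JUND fell from 34.2 to 10.0 FPKM and from 10.0 to 3.38 FPKM and FOSL2 from 54.8 to 6.28 FPKM and from 30.5 to 8.74 FPKM. JUNB and JUND did not pass without the library labelled KYSE510 DMSO (adjusted p = 0.0689 and 0.0514).

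Of 23 apoptosis promoters 12 fell and 0 rose, and 7 were lower and 3 higher relative to the median gene. All tested genes, for each list of this paragraph, had 25.2% lower and 3.27% higher, or 10.8% and 11.5% relative to it. APAF1, the scaffold of the apoptosome, went from 9.48 to 2.23 FPKM and from 13.3 to 2.30 FPKM, and FADD, the death receptor adaptor, from 67.6 to 5.32 FPKM and from 13.0 to 1.38 FPKM (adjusted p = 0.0573 without the library labelled KYSE510 DMSO). Of 12 apoptosis inhibitors 4 fell and 0 rose, but only 1 was lower relative to the median gene. BIRC2 fell from 47.1 to 7.72 FPKM and from 27.2 to 15.5 FPKM. MCL1, a short-lived BCL2-family inhibitor, was at 145 and 46.3 FPKM in KYSE510 and at 101 and 116 FPKM in TE7 and did not pass (adjusted p = 0.208). Among 22 p53 target genes 5 fell and 2 rose, or 2 and 3 relative to the median gene, and the riser within the naming rule was GADD45B, a stress sensor, from 9.83 to 33.0 FPKM and from 7.88 to 32.5 FPKM.

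Of 15 HUSH complex and silencing cofactor genes 10 fell and 0 rose, or 4 were lower and 1 higher relative to the median gene, with MORC2 from 13.8 to 2.66 FPKM and from 16.8 to 2.81 FPKM and the heterochromatin protein gene CBX5 from 25.4 to 3.73 FPKM and from 32.5 to 5.50 FPKM. Among 20 clock genes 2 rose and 6 fell, or 2 each relative to the median gene. All tested genes had 25.2% lower and 3.27% higher, or 10.8% and 11.5% relative to the median gene. These shares apply to each list of this paragraph. The repressor genes CRY1 (6.65 to 22.9 and 11.8 to 32.4 FPKM) and CRY2 (2.68 to 15.1 and 3.23 to 7.25 FPKM) rose, while the output factor DBP fell from 24.0 to 1.20 FPKM and from 12.3 to 0.732 FPKM. Among 19 TGF-beta, BMP and ID genes 7 fell and 2 rose, or 3 and 2 relative to the median gene, with the inhibitory SMAD6 from 10.6 to 0.577 FPKM and from 8.29 to 1.45 FPKM. Of 25 interferon response genes 4 fell and 2 rose, or 1 was lower and 4 higher relative to the median gene. STAT2, the signal transducer, fell from 16.9 to 6.23 FPKM and from 24.8 to 6.27 FPKM, and IRF1 fell from 42.4 to 1.67 FPKM and from 6.98 to 2.79 FPKM, not past the threshold relative to the median gene (adjusted p = 0.0772). The risers were the induced genes IFIT1 (2.74 to 12.3 and 19.5 to 54.1 FPKM) and IFI6 (16.4 to 48.0 and 7.16 to 12.1 FPKM). Neither passed without the library labelled KYSE510 DMSO (adjusted p = 0.211 and 0.218).

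Of 79 cytosolic ribosomal protein genes 3 rose and 0 fell in deposited FPKM, and 39 were higher relative to the median gene, against 11.5% of all tested genes; their relative medians were 0.50 and 0.57. Without the library labelled KYSE510 DMSO limma called none of the 79 in deposited FPKM, and 7 had an unadjusted p under 0.05. Of 76 nuclear oxidative phosphorylation genes 11 rose and 2 fell, against 3.27% and 25.2% of all tested genes, and 49 were higher relative to the median gene. Without the library labelled KYSE510 DMSO 3 rose and 2 fell, against 2.40% and 23.8%. COX6C went from 159 to 327 FPKM and from 489 to 743 FPKM, whereas NDUFV3 fell from 9.72 to 2.99 FPKM and from 12.3 to 3.11 FPKM. Proteasome genes had 2 of 33 higher and 4 lower, but 14 higher and 0 lower relative to the median gene. ADRM1, the ubiquitin receptor of the particle, rose from 97.9 to 302 FPKM and from 151 to 311 FPKM. Mitochondrial ribosomal protein genes had 20 of 77 lower and 0 higher, near the 25.2% of all tested genes, and 10 higher and 5 lower relative to the median gene. MRPL36 fell from 66.4 to 13.1 FPKM and from 99.1 to 20.6 FPKM. These counts move with the scaling, and the level of a gene moves with it as given above; the part of abundance in them was not tested.

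Ribosome biogenesis genes had 3 of 36 higher and 9 lower, the latter near the 25.2% of all tested genes. Relative to the median gene 13 were higher and 0 lower, against 11.5% and 10.8%. NOLC1, a nucleolar chaperone gene, rose from 65.4 to 120 FPKM and from 63.9 to 160 FPKM, and NOP56, of the box C/D particle, from 158 to 482 FPKM and from 175 to 429 FPKM. POLR1E of RNA polymerase I fell from 12.6 to 6.15 FPKM and from 19.8 to 3.85 FPKM. Of 18 small nucleolar RNA host genes 3 rose and 4 fell, against 3.27% and 25.2% of all tested genes. Relative to the median gene 6 of them were higher and 0 lower, against 11.5% and 10.8%. The host gene SNHG15 rose from 36.8 to 159 FPKM and from 34.2 to 81.1 FPKM. Aminoacyl-tRNA synthetase genes had 10 of 23 lower and 0 higher, against 25.2% and 3.27% of all tested genes. Relative to the median gene 2 were lower and 2 higher, near the 10.8% and 11.5% of all tested genes. AARS fell from 49.0 to 15.3 FPKM and from 86.8 to 12.4 FPKM.

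**Figure D4:**
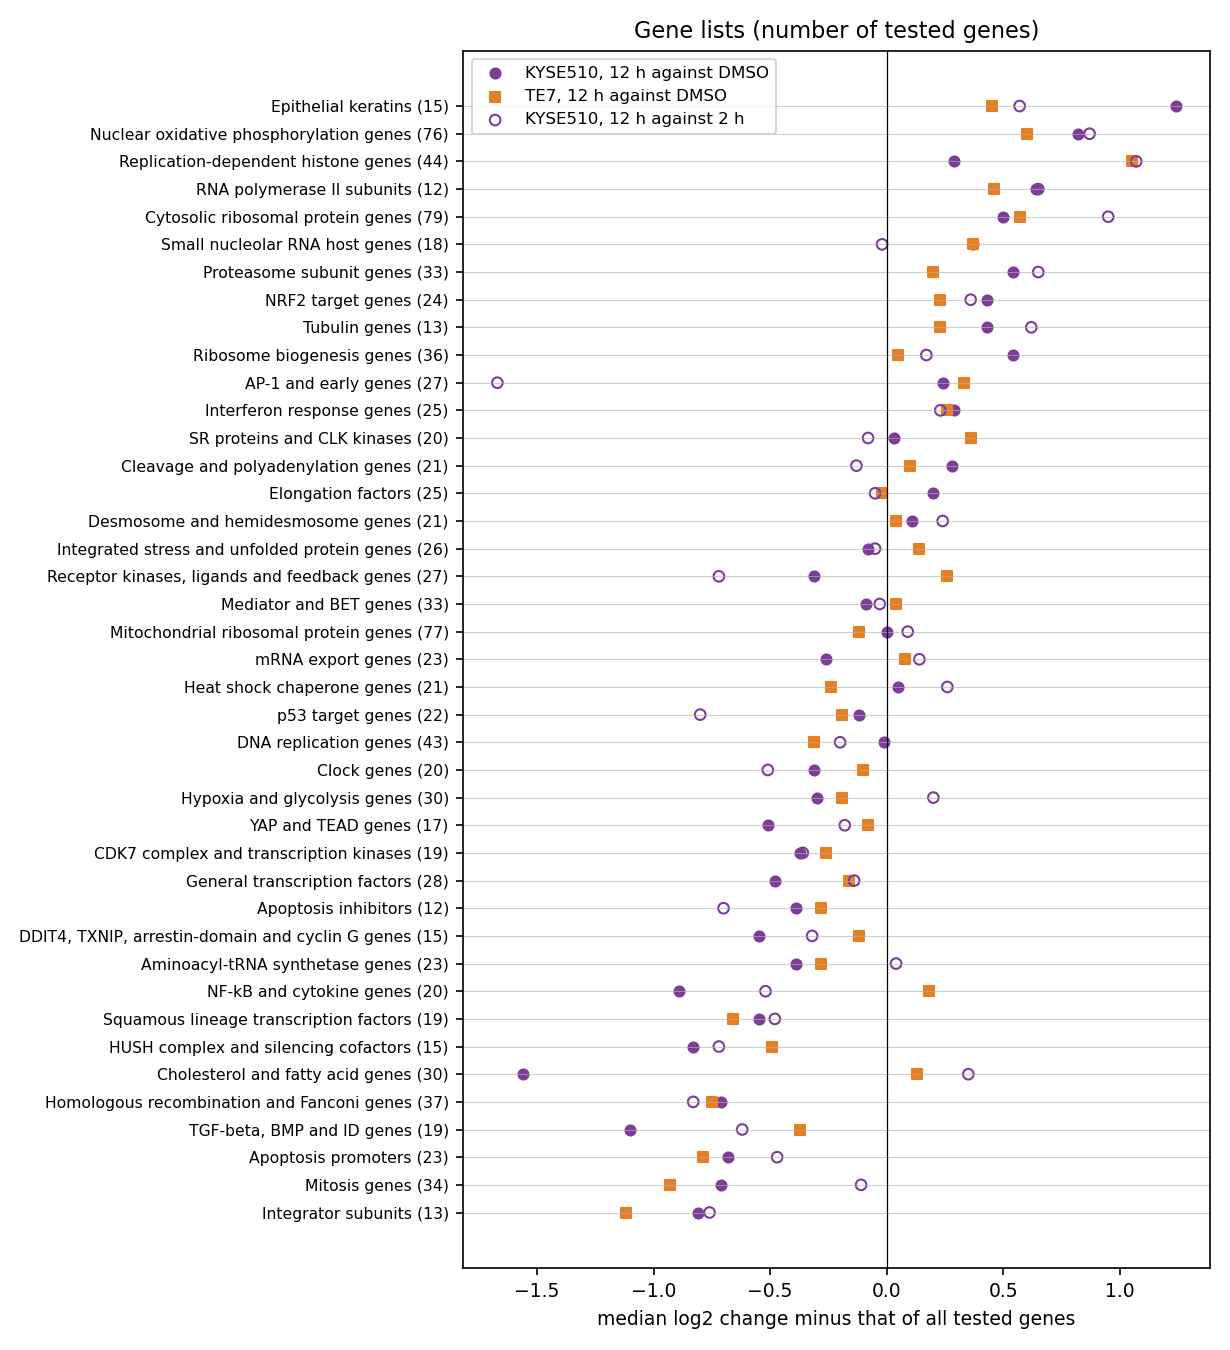
Median log2 change of each gene list minus that of all tested genes (x axis, log2(FPKM + 1)), for lists with at least 10 tested genes (count in brackets on the y axis); filled points are 12 h against DMSO in each line, and open points KYSE510 12 h against 2 h. Integrator lies lowest on average over the lines against DMSO (-0.81 and -1.12), and cholesterol genes lie at -1.56 in KYSE510 against DMSO and at 0.35 against 2 h.

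In a few lists the KYSE510 median moved with the reference, either the library labelled KYSE510 DMSO or the 2 h library. Cholesterol and fatty acid genes had 7 of 30 lower and 0 higher, near the 25.2% and 3.27% of all tested genes. Their relative medians were -1.56 in KYSE510, 0.13 in TE7 and 0.35 in KYSE510 at 12 h against 2 h. SREBF1, a master factor of lipid synthesis, fell from 68.5 to 19.3 FPKM and from 58.9 to 20.3 FPKM. It did not pass without the library labelled KYSE510 DMSO (adjusted p = 0.07). NF-kB and cytokine genes had relative medians of -0.89 in KYSE510 and 0.18 in TE7 against DMSO. At 12 h against 2 h both were below 0, at -0.52 in KYSE510 and -0.36 in TE7. AP-1 and early genes moved with the reference in both lines. They lay at 0.24 in KYSE510 and 0.33 in TE7 against DMSO, and at -1.67 and -0.89 against 2 h. In the fit of 12 h against 2 h 14 of these 27 genes were called lower, beside 3126 of all 15610 tested genes.

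The mitochondrially encoded genes could be compared in TE7 only. In KYSE510, 10 of the 13 protein genes are listed at 0 in every library. Their FPKM summed to 41.9 in the library labelled KYSE510 DMSO and 94.1 at 12 h. In TE7 the 13 genes summed to 51261 FPKM in DMSO and 192384 FPKM at 12 h, 8.47% and 26.4% of all FPKM. The intermediate sums were 74040, 79065 and 118638 FPKM at 2, 4 and 6 h. FPKM of all other genes in TE7 summed to 553702 in DMSO and 537132 at 12 h. This share moves with the TE7 median gene of -0.52, and its part in that value was not tested.

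Processed pseudogenes, intronless copies of mRNAs, stood out by where they lie. The test of position was chosen after values were seen. In GENCODE 29, 188 tested processed pseudogenes lie inside an intron of a protein-coding gene, and 48 of them rose (25.5%) while 2 fell, against 3.27% higher among all tested genes. Of 197 that lie outside protein-coding genes 3 rose and 8 fell. The relative medians of the intronic copies were 0.54 in KYSE510, 0.84 in TE7 and 0.57 in KYSE510 at 12 h against 2 h; those outside had 0.17, 0.52 and 0.34. Without the library labelled KYSE510 DMSO 38 of the 188 were higher. Of RNAs annotated as sense intronic, 16 of 67 in introns rose and 2 fell, and of 221 tested protein-coding genes in introns of others 9 rose and 62 fell. A gene near 0 in DMSO could enter the tested set through its 12 h libraries alone, so the counts over tested genes are a description.

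The unfiltered numbers do not depend on that entry. Of 3105 intronic processed pseudogenes in the tables, the library labelled KYSE510 DMSO had 94 at 1 FPKM or more, and KYSE510 had 105, 103, 124 and 131 at 2, 4, 6 and 12 h. In TE7 the numbers were 44 in DMSO and then 53, 68, 84 and 111. Of 6554 outside protein-coding genes the library labelled KYSE510 DMSO had 150 at 1 FPKM or more, and KYSE510 had 129, 126, 130 and 126 at 2, 4, 6 and 12 h. In TE7 there were 78 in DMSO and then 63, 64, 53 and 60. Among DMSO and the 50 nM libraries the intronic numbers were thus highest at 12 h in both lines, while those outside were lower in every 50 nM library than in DMSO and did not go on falling from 2 to 12 h in KYSE510. The KYSE510 drop rests on the DMSO library that stands apart.

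**Figure D5:**
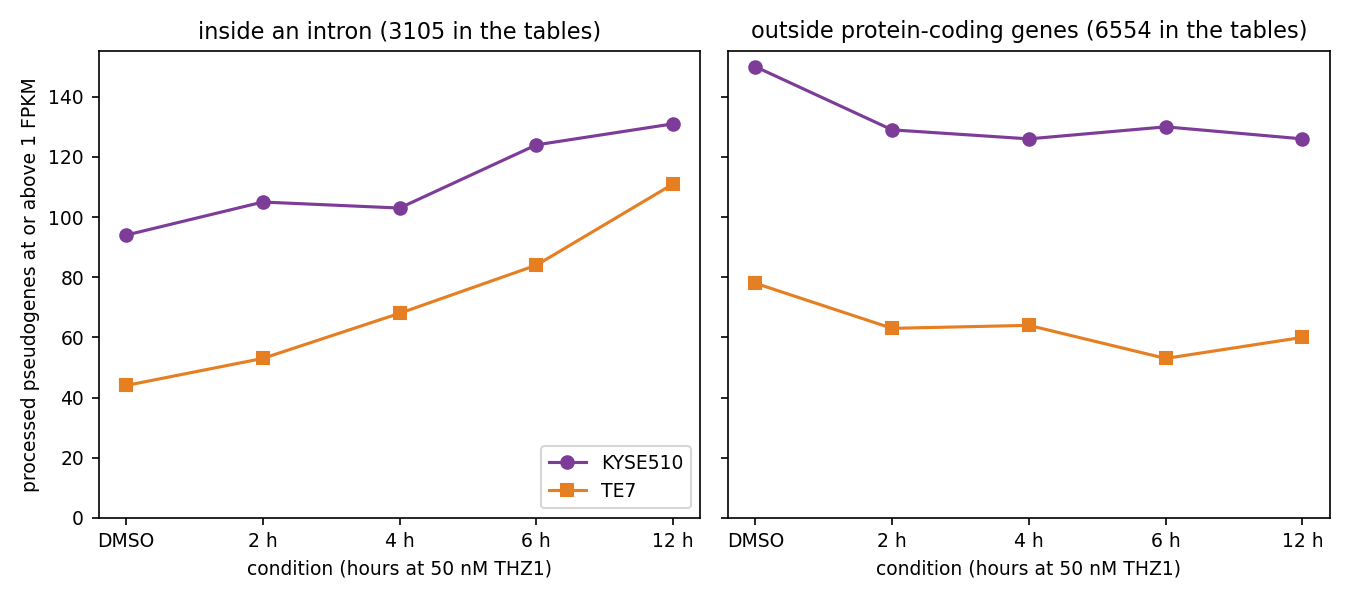
Number of processed pseudogenes at or above 1 FPKM (y axis, from 0) by condition (x axis), for 3105 copies inside introns of protein-coding genes and 6554 outside them, 1 point per library. Intronic copies go from 94 to 131 in KYSE510 and from 44 to 111 in TE7, and copies outside from 150 to 126 and from 78 to 60.

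Among the 188 tested intronic copies, the share called higher differed by strand and by place within the host gene. These shares carry the limit on entry into the tested set given above, and no unfiltered numbers are given for them. On the host's own strand 28 of 78 rose, and on the opposite strand 20 of 110 (35.9% and 18.2%). By position along the host from its 5′ end, 23 of 78 rose in the first 25%, 12 of 36 in the next 25%, 11 of 43 in the next and 2 of 31 in the last. Of the 47 tested hosts of the called copies 2 rose and 7 fell, against 3.27% and 25.2% of all tested genes, with relative medians of 0.09 and 0.29. Whether fragments were counted by strand is not given in the sources used here, so RNA of the host intron and RNA of the pseudogene cannot be told apart.

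CHMP4BP1, a copy of the ESCRT gene CHMP4B inside an intron of FBXO34 and 27.3 kb from its start, ranked first among rises within the naming rule, which orders genes by the smaller of the lines' relative changes. It was at 0.246 and 15.3 FPKM in KYSE510 and at 0.441 and 24.7 FPKM in TE7, with 0.184 FPKM in KYSE510 at 2 h (3.93 ± 0.26, adjusted p = 0.00108). The parent CHMP4B was at 72.5 and 83.0 FPKM and at 112 and 108 FPKM. RPS7P3, a copy of a ribosomal protein gene inside PCNX2, went from 0.467 to 4.85 FPKM and from 0.446 to 7.83 FPKM, while RPS7 was at 1042 and 1408 FPKM and at 1023 and 1058 FPKM. AP000580.1, in an intron of RSF1, went from 2.00 to 26.1 FPKM and from 1.53 to 47.5 FPKM; it and RPS7P3 were named after their values were seen. Of the 48, 21 carry a parent's symbol, and 1 parent rose and 0 fell, against 3.27% and 25.2% of all tested genes. In the bin of highest FPKM 7.64% was called lower, and the part of abundance in the parents' count was not tested. The longest run of bases identical to the parent was 23 to 114 bases, with a median of 59.0. Stretches of 200 bases show how far 2 of these copies have drifted, with the longest run shared with a parent transcript in capitals. They come from the GENCODE 29 transcripts, for CHMP4BP1 bases 285 to 484 of the copy at chr14:55298644-55299231 (GRCh38, plus strand) and for RPS7P3 bases 381 to 580 of the copy at chr1:233288868-233289447 (minus strand).
CHMP4BP1: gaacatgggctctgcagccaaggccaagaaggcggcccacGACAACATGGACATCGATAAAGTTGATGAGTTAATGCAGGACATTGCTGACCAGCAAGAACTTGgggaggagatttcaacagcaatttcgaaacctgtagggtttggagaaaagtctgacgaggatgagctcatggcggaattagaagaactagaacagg
RPS7P3: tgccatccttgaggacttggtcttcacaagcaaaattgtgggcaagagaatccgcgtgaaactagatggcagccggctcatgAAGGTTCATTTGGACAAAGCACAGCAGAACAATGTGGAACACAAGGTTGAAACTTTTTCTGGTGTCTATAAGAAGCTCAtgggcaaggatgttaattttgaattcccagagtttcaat
The capitals span 64 bases in CHMP4BP1 and 79 bases in RPS7P3, and no identical run elsewhere in either copy is longer.

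Promoters were searched for a TATA box. RefSeq promoter sequences (GRCh38.p14, 250 bases before to 50 after the start) were found for 10573 tested genes. The motif TATAAA, read on the gene's own strand and lying 45 to 16 bases before the start, was in 187 of them (1.77%) and in 2.63% of all 27305 promoters of that length in the table. It was in 13 of the 320 promoters of genes at least 1 unit above the median gene in both lines (4.06%) and in 7 of 880 of those at least 1 unit below (0.795%). Among promoters of genes called by limma relative to the median gene it was in 24 of 1296 higher ones (1.85%, near the share of all tested genes) and in 10 of 1278 lower ones (0.782%). In deposited FPKM it was in 9 of 289 called higher (3.11%) and in 30 of 3007 called lower (0.998%). Over the 187 genes the relative medians were 0.11 in KYSE510 and 0.37 in TE7, against -0.09 and -0.07 without the motif. GC content hardly differed, with medians of 65.0% in both sets. A match is a description of these letters, and the motif was chosen after values were seen.

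The promoters of 4 such genes are shown because the genes appear in the results above: NXF1, GADD45B, JUNB and GTF2B all rose and all carry the motif, in capitals. They are among the 13 motif genes at least 1 unit above the median gene in both lines, so their rise was part of the choice. GTF2B itself encodes the factor that bridges TATA-bound TBP and the polymerase. The windows are chr11:62805391-62805690 (minus strand) for NXF1, chr19:2475877-2476176 (plus strand) for GADD45B, chr19:12791236-12791535 (plus strand) for JUNB, chr1:88891518-88891817 (minus strand) for GTF2B.
NXF1: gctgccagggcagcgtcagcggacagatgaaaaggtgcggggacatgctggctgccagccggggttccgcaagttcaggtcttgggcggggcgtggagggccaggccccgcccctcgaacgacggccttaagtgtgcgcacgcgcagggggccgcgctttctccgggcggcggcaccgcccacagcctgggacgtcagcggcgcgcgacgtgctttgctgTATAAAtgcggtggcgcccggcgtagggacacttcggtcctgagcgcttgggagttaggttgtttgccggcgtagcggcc
GADD45B: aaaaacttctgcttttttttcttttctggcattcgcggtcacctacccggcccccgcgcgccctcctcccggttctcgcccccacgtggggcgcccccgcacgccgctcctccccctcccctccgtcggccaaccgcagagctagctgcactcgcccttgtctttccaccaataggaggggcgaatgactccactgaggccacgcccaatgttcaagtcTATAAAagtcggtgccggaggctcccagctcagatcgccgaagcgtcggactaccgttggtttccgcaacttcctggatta
JUNB: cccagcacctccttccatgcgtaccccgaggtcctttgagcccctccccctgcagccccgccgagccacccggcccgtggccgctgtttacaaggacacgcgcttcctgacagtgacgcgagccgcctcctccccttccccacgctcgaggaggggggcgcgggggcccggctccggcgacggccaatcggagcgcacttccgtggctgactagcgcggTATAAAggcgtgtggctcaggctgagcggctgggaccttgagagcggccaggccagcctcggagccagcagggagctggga
GTF2B: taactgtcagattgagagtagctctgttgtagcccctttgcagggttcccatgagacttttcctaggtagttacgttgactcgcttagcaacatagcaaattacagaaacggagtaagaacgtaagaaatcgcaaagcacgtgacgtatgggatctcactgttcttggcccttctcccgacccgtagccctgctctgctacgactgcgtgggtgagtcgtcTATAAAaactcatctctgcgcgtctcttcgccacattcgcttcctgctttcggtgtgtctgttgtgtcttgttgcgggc
The first T of the motif lies 30, 31, 31 and 29 bases before the start, in that order. In KYSE510 at 12 h against 2 h these 4 genes lay at 1.93, 1.84, 1.23 and 1.33 relative to the median gene.

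A fit with line terms for DMSO and 12 h called 35 of 15610 genes (0.224%) whose change differed between the lines. The same fit without both 200 nM libraries called 7499, so the number rests on them. UCHL1, PRDX2 and PKP1 had the more positive change in KYSE510 and KRT7 in TE7, and in these 4 genes the KYSE510 2 h library was already near its 12 h value and far from DMSO. The peroxiredoxin gene PRDX2 was at 0.425, 144 and 206 FPKM in KYSE510 in DMSO, at 2 h and at 12 h, and at 223 and 215 FPKM in TE7. The keratin KRT7 was at 420, 5.43 and 5.18 FPKM in the same order, and at 259 and 191 FPKM in TE7. The desmosomal plakophilin gene PKP1 was at 1.10, 103 and 92.4 FPKM in KYSE510 and at 67.8 and 47.3 FPKM in TE7. EGR1 differed too, at 56.5 and 34.4 FPKM in KYSE510, with 141 FPKM at 2 h, and at 99.7 and 5.64 FPKM in TE7.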

How the data were processed

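The authors deposited 1 gene table per library in FPKM with 95% bounds, per the file headers; STAR, Cufflinks and hg19 are named per the submitters' processing notes, and their versions, settings and gene annotation were not found in them. Values of the 108 identifiers with several loci were added. The 15610 genes at or above 1 FPKM in 2 or more of 12 libraries were tested as log2(FPKM + 1), so changes of low genes are understated. The model was limma 3.58.1 in R 4.3.3 with a term per condition, a cell-line block and a mean trend, with Benjamini-Hochberg adjustment over all tested genes, a threshold of 0.05 and two-sided tests. It left 5 residual degrees of freedom plus 2.86 from the prior. The pairing comes from the cell line, which same-numbered libraries share by label. "Relative to the median gene" means, per line, the change minus the median change, and for tests the same fit after median-of-ratios scaling.

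Unless marked otherwise, text values in pairs are DMSO then 12 h. Genes within the naming rule had a mean FPKM of at least 5 over the 4 libraries and an ordinary symbol. They were the 12 largest rises and falls, up to 3 members per list and direction, 13 genes fixed by name, the 5 largest line differences per direction and the 10 of highest FPKM; a subset is named, and some results are not reported here. Members and lists were chosen with earlier results of these data known. Biotypes and host introns came from GENCODE 29 by identifier (90.6% of 57755 matched), and promoters from RefSeq through Entrez identifiers. The fit was tested on simulated data. Alternatives were pseudocounts of 0.1 and 5, filters, scalings, variance models, no block and libraries left out; the comparison with 2 h, the fit without 3 libraries that stand apart and leaving libraries out of the scaled fit were added after seeing the data.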

Additional observations from a re-analysis of the deposited data

Results flagged for a closer look

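The difference between the lines' changes (TE7 minus KYSE510, log2, limma with line terms) passed its test for 5 of the genes named above. It was -8.51 for UCHL1, -7.23 for PRDX2, -5.99 for PKP1, 5.65 for KRT7 and -3.22 for EGR1. In UCHL1, PRDX2, PKP1 and KRT7 the library labelled KYSE510 DMSO lay far from all other KYSE510 libraries at 50 nM, as given above. EGR1 stood at 5.66% of DMSO in TE7 and at 60.9% in KYSE510. Without both 200 nM libraries the same test called 7499 genes in place of 35, so the number of line differences depends on these libraries.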

How the results depend on the processing

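The 4439 calls became 2865 at a mean FPKM of at least 5 (2510 lower), 1657 with no replicate block (132 higher, 1525 lower) and 8166 without the library labelled KYSE510 DMSO and both 200 nM libraries, the 3 that stand apart (1316 and 6850), where DMSO is the TE7 library alone. With only the 4 libraries limma called 0 genes, higher or lower, with 3906 at an unadjusted p under 0.05. Leaving out 1 library gave 2000 to 5949 calls, 185 to 1121 higher and 1815 to 5054 lower; the fewest came without TE7 at 12 h. Higher calls were 308 at equal sums, 1802 by median of ratios, 1473 by upper quartile, 899 without both 200 nM libraries and 293 against 2 h. Lower calls were 1679 by median of ratios and 1942 by upper quartile. Relative to the median gene, 3992 were higher and 3404 lower without the 3 libraries, 998 lower against 2 h, and leaving out a library of the contrast gave 583 to 2118 higher and 491 to 2132 lower. The genes changed by 1 unit in both lines numbered 1116 and 1859 at a pseudocount of 0.1, 153 and 408 at 5, 159 and 360 at a size of 1.5, 206 and 2347 with no median subtracted, and 735 lower ones at a mean FPKM of at least 5. The line differences numbered 7499 without both 200 nM libraries. The causes were not tested.

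Of 91 named genes with a call, 75 kept it without the library labelled KYSE510 DMSO, 66 without KYSE510 at 12 h, 65 without TE7 at 12 h, 60 with no replicate block and 76 by median of ratios. CDK12, CDK8, POLR2D, SRSF3, HIST3H2A, BNC1, GRHL2, EVPL, YAP1, JUND, BIRC2, IRF1, POLR1E, SREBF1 and EGR1 lost it in that scaling. The signs of 6 genes without a call turned. SOX2 was at 0.27 by median of ratios and 0.17 by upper quartile, MYC at 0.23 and 0.12. With 1 library left out, SOX2 ranged from -2.37 to 1.78, PKP1 from -0.38 to 5.35 and PRDX2 from -0.08 to 7.21, the last 2 lowest without the library labelled KYSE510 DMSO. Without the 3 libraries MYC was at 0.01, RUNX1 at 0.08, MCL1 at 0.00, PRDX2 at -0.09 and PKP1 at -0.47, and PKP1 against 2 h at -0.17. Integrator had 5 to 9 members lower and intronic processed pseudogenes 22 to 53 higher with 1 library left out.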
